A study of Mus musculus with 3 samples.

Results

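The colony-stimulating factors (CSFs) and their receptors were followed in bone marrow-derived macrophages (BMDMs) treated with borrelial lipoproteins (*Bb*LP). The members are the 8 genes of this ligand and receptor family that were picked by symbol from the 32285 genes of the count matrices. They are the receptor genes *Csf1r*, *Csf2ra*, *Csf2rb*, *Csf2rb2* and *Csf3r* and the growth factor genes *Csf1*, *Csf2* and *Csf3*. All 8 were found. The data are 3 single-cell RNA libraries, 1 per condition. Ctrl holds BMDMs that were not given *Bb*LP. LP1 and LP4 hold BMDMs given *Bb*LP at 1 µg/mL, with 1 hour of exposure in LP1 and 4 hours in LP4. The labels call Ctrl untreated, whereas the study describes these cells as given PBS, so Ctrl is read as a PBS control. Ctrl cells were collected with the 4-hour cells. All 3 groups were wild-type BMDMs of female C3H/HeN mice aged 6 to 8 weeks per the labels. They were made by culture with L929-conditioned medium, which is a source of CSF1. They rested overnight in fresh medium before treatment, and the protocol does not name the L929 supplement for that step. For these libraries the study describes BMDMs from 3 mice that were treated independently, although its general culture protocol pools marrow. Because 3 wells per condition were pooled ahead of capture, each condition is 1 sample. The spread between cultures is unknown, and conditions could not be tested against each other.

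CSFs are secreted proteins that keep myeloid cells alive and direct their growth and maturation. CSF1 (M-CSF) binds the receptor tyrosine kinase CSF1R and is the factor on which macrophages depend. CSF2 (GM-CSF) and CSF3 (G-CSF) act through cytokine receptors that have no kinase of their own and that signal through JAK2 and STAT proteins, and both factors are made by macrophages and stromal cells on contact with bacterial products. The CSF2 receptor pairs a ligand-binding alpha chain (*Csf2ra*) with a common beta chain (*Csf2rb*) that the IL-3 and IL-5 receptors share, and the mouse has a second beta chain gene (*Csf2rb2*) that serves IL-3 alone.

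Each molecule of RNA was counted once through its unique molecular identifier (UMI). The UMIs of a gene were summed over the cells of a library that passed the limits (over 500 UMIs, over 500 genes and under 5% mitochondrial UMIs) and are given per 1000000 UMIs of that library (CPM). After this selection 6071 Ctrl, 5065 LP1 and 4670 LP4 cells remained, with 35688939, 52475723 and 61402275 UMIs and medians of 5133, 9343 and 11784 UMIs per cell. LP4 was the deepest library per cell and Ctrl the shallowest. The mitochondrial limit removed 18 barcodes from Ctrl, 43 from LP1 and 273 from LP4, and 4 to 10 barcode sequences occurred in 2 libraries of each pair. All 12 macrophage markers were found in every library, with a summed level of 17984, 17614 and 17574 CPM. Those of neutrophils summed to 574, 478 and 760 CPM and those of stromal cells to 5.35, 6.31 and 22.1 CPM. The 6 lymphocyte markers summed to 0.700, 0.877 and 0.749 CPM, with *Cd3e* at 0 UMIs and *Ms4a1* at 12, 29 and 40. Ratios are given as log2 of CPM, with an exact 95% interval of the ratio of the counts. Every interval in the text covers counting error only. A gene was compared when it had at least 50 UMIs in the 2 libraries together, and it was called when it differed by 2-fold or more with an interval that left out a ratio of 1. CPM count molecules near the 3′ end of transcripts and are not scaled by transcript length, so levels were compared between libraries or clusters, not between genes.

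At 1 hour none of the 8 members was called against Ctrl, beside a background of 1.09% of 12526 compared genes called higher and 1.62% called lower. At 4 hours 7 members were compared with Ctrl, and *Csf3r* and *Csf3* were called higher and *Csf1* lower. Among all 12714 genes compared at 4 hours, 11.1% were called higher and 13.6% lower. Between LP4 and LP1, *Csf2rb*, *Csf3r* and *Csf3* were called higher and *Csf1* lower, beside 9.83% of 12878 genes higher and 11.1% lower. The calls of all genes were 136 higher and 203 lower at 1 hour and 1407 higher and 1733 lower at 4 hours, and they shifted to 178 and 164 and to 1757 and 1312 with TMM scaling, which divides by a trimmed mean of ratios. That scaling raised the median log2 ratio of all genes at 4 hours by 0.17, and DESeq2 size factors raised it by 0.21. The members' median log2 ratio at 4 hours was 0.65 over the 7 compared, which is the ratio of *Csf2rb*, beside -0.13 over all genes. The 7 ratios ran from -1.07 (*Csf1*) to 1.18 (*Csf3*), and *Csf2*, at -1.63, was not compared. No shared direction of the members is read from this median.

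**Figure D1:**
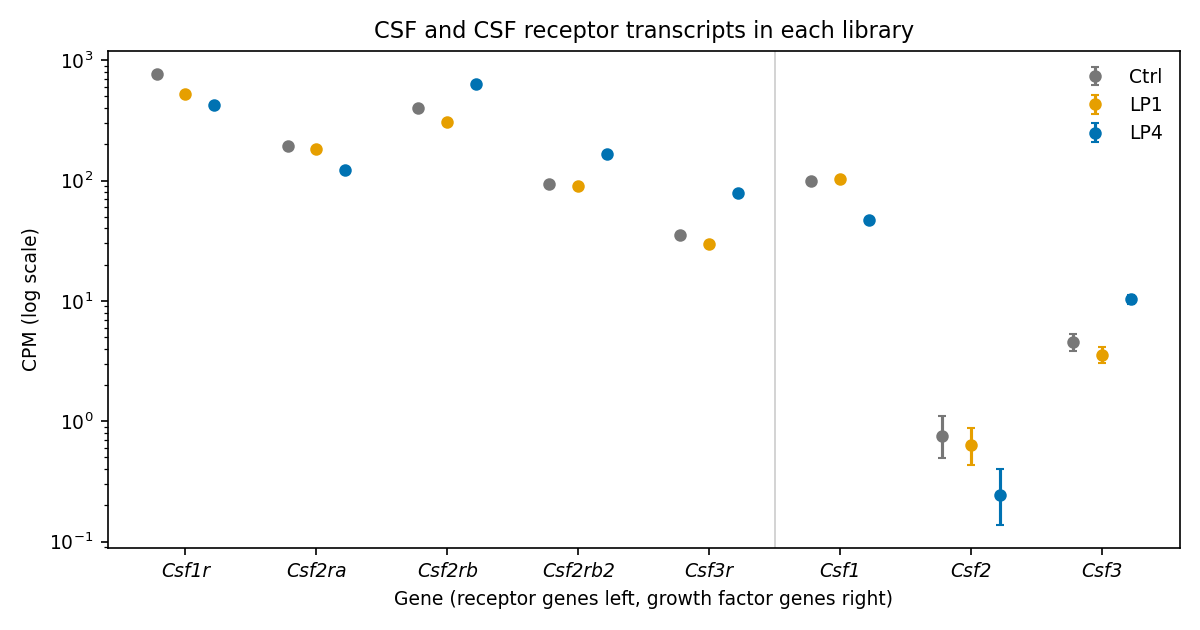
Level of each member in CPM (log axis) in Ctrl, LP1 and LP4. Points are 1 library each and bars are exact Poisson 95% intervals, which are often smaller than the point. *Csf1r* and *Csf2ra* are lower in LP4 than in Ctrl, *Csf2rb*, *Csf2rb2* and *Csf3r* are higher, and *Csf1* and *Csf3* move in opposite directions.

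The transcript of the CSF1 receptor was lower than in Ctrl at both times. *Csf1r* (ENSMUSG00000024621, chromosome 18, 61100598 to 61132149, plus strand, GENCODE vM21 on GRCm38) encodes the receptor tyrosine kinase that marks the macrophage lineage. Its level was 769 CPM in Ctrl (27433 UMIs, 95% interval 760 to 778), 522 CPM in LP1 (27369 UMIs, 515 to 528) and 421 CPM in LP4 (25864 UMIs, 416 to 426). The 3 intervals do not overlap, and most of the decrease was present at 1 hour. The log2 ratio to Ctrl was -0.56 (-0.58 to -0.54) in LP1 and -0.87 (-0.89 to -0.84) in LP4, and that of LP4 to LP1 was -0.31. None of these reached 2-fold. *Csf1r* was the only member with a log2 ratio beyond 0.5 in either direction at 1 hour.

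At equal depth a *Csf1r* UMI was also found in a smaller share of treated cells. Each cell was thinned at random to 2000 UMIs so that the deeper libraries did not gain cells from depth alone, and 122 Ctrl, 13 LP1 and 45 LP4 cells were too shallow to enter. At this depth 76.4% of Ctrl cells (exact binomial 95% interval 75.4 to 77.5), 63.2% of LP1 cells (61.8 to 64.5) and 58.0% of LP4 cells (56.6 to 59.4) held a *Csf1r* UMI. Without thinning the shares were close to saturation, with *Csf1r* UMIs in 5740 of 6071 Ctrl cells and 4470 of 4670 LP4 cells. In neutrophil-like cells, a type with little *Csf1r*, the thinned shares were 14.3% of 21 cells, 9.52% of 21 and 13.8% of 29. In stromal-like cells, which should lack the receptor, a thinned *Csf1r* UMI was found in 14 of 23 (60.9%), 4 of 20 and 6 of 21. The stromal-like share was also lower in LP1 and LP4, and it lay above that of the neutrophil-like cells in each library. Whether it is a background of the libraries, and its part in the shares of all cells, were not tested. The shares are not read as shares of cells that express *Csf1r*. The median depth of the neutrophil-like cells was 2940, 5891 and 9303 UMIs, against 5141, 9361 and 11798 UMIs in all other cells.

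The transcripts of the alpha and common beta chains of the CSF2 receptor moved in opposite directions at 4 hours. Neither was called against Ctrl. *Csf2ra* (ENSMUSG00000059326, chromosome 19, 61223957 to 61228429, minus strand) encodes the alpha chain, which gives the receptor its specificity for CSF2. Its level was 194 CPM in Ctrl (6931 UMIs), 183 CPM in LP1 (9610 UMIs) and 123 CPM in LP4 (7536 UMIs). LP1 and Ctrl differed by a log2 ratio of -0.08 (-0.13 to -0.04), and LP4 was lower than Ctrl by a log2 ratio of -0.66 (-0.71 to -0.61), short of 2-fold.

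*Csf2rb* (ENSMUSG00000071713, chromosome 15, 78325752 to 78353847, plus strand) encodes the common beta chain, which carries the signal of CSF2, IL-3 and IL-5. Its level was 403 CPM in Ctrl (14390 UMIs), 305 CPM in LP1 (16018 UMIs) and 633 CPM in LP4 (38858 UMIs). The 2 times differed in direction from Ctrl. LP1 was lower than Ctrl by a log2 ratio of -0.40 (-0.43 to -0.37), and LP4 was higher by 0.65 (0.62 to 0.68). Against LP1, LP4 was higher by 1.05 (1.03 to 1.08), which is past 2-fold. At 2000 UMIs per cell, at least 3 *Csf2rb* UMIs were held by 6.40%, 4.26% and 15.4% of cells.

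*Csf2rb2* (ENSMUSG00000071714, chromosome 15, 78282507 to 78305721, minus strand) lies 20030 bases from *Csf2rb*, in the opposite orientation. Its level was 94.3 CPM in Ctrl (3364 UMIs), 90.3 CPM in LP1 (4736 UMIs) and 165 CPM in LP4 (10138 UMIs). LP1 and Ctrl were not separated, with a log2 ratio of -0.06 (-0.13 to 0.00), while LP4 was higher than Ctrl by 0.81 (0.75 to 0.87) and than LP1 by 0.87. The 2 beta chain genes are near-identical copies, so the division of reads between them is uncertain. The ratio of *Csf2rb* to *Csf2rb2* UMIs was 4.28 for Ctrl, 3.38 for LP1 and 3.83 for LP4.

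The thinned shares of cells followed the levels. Cells with a *Csf2ra* UMI made up 29.3% of Ctrl (28.1 to 30.5), 28.0% of LP1 and 20.2% of LP4. For *Csf2rb* the shares were 47.9% in Ctrl (46.6 to 49.2), 41.4% in LP1 and 65.2% in LP4 (63.8 to 66.6), and for *Csf2rb2* they were 16.8%, 16.0% and 26.5%. The share of thinned cells with UMIs of both *Csf2ra* and *Csf2rb*, the pair that makes the CSF2 receptor, was 14.7% in Ctrl (13.8 to 15.6), 12.0% in LP1 and 13.1% in LP4 (12.2 to 14.2). A smaller share of LP4 cells held a UMI of the alpha chain and a larger share one of the beta chain, and the intervals of the share with both overlapped between Ctrl and LP4. Stromal-like cells, which should lack these receptors, held a *Csf2ra* UMI in 6 of 23, 8 of 20 and 5 of 21 thinned cells a *Csf2rb* UMI in 11, 10 and 6, and a *Csf2rb2* UMI in 5, 5 and 2. At least 50% of the stromal-like cells also held UMIs of each of 5 macrophage markers. The *Csf2ra* shares of LP1 and LP4 and the *Csf2rb2* shares of Ctrl and LP1 did not exceed those of the stromal-like cells. Nor did the *Csf2rb* share of LP1, and that of Ctrl, at 47.9% against 47.8%, was equal to theirs within error. These shares, and the share with both chains, are not read as shares of cells that express the genes. The *Csf2rb* share of LP4 lay above the 28.6% of the stromal-like cells of LP4. The *Csf2rb2* share of LP4 was above their 9.52%, but 2 of 21 cells are too few to separate it from that share. The level of *Csf2ra* differed 2.21-fold between clusters of macrophage-like cells in Ctrl. In neutrophil-like cells a *Csf2rb2* UMI was found in 0 of 21, 1 of 21 and 1 of 29, lower shares than in the stromal-like cells. The stromal-like shares are thus not read as the background of the libraries.

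The receptor of CSF3 had the largest log2 ratio of the receptor genes at 4 hours. *Csf3r* (ENSMUSG00000028859, chromosome 4, 126024550 to 126044440, plus strand) is best known as the receptor that drives neutrophil formation. Its level was 35.2 CPM in Ctrl (1258 UMIs, 33.3 to 37.3), 29.7 CPM in LP1 (1556 UMIs, 28.2 to 31.2) and 78.8 CPM in LP4 (4841 UMIs, 76.6 to 81.1). LP1 was somewhat lower than Ctrl, with a log2 ratio of -0.25 (-0.36 to -0.14), and LP4 was higher than Ctrl by 1.16 (1.07 to 1.25) and higher than LP1 by 1.41 (1.33 to 1.49). The thinned share of cells with a *Csf3r* UMI was 7.19% in Ctrl (6.55 to 7.88), 5.98% in LP1 (5.34 to 6.67) and 14.7% in LP4 (13.7 to 15.8). In stromal-like cells, which should lack the receptor, no thinned cell of 23, 20 and 21 held one, and 1 *Csf3r* UMI was counted in these cells in each library. Of the thinned LP4 cells with a *Csf3r* UMI, 61.4% also held a *Csf1r* UMI, against 57.4% of those without.

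**Figure D2:**
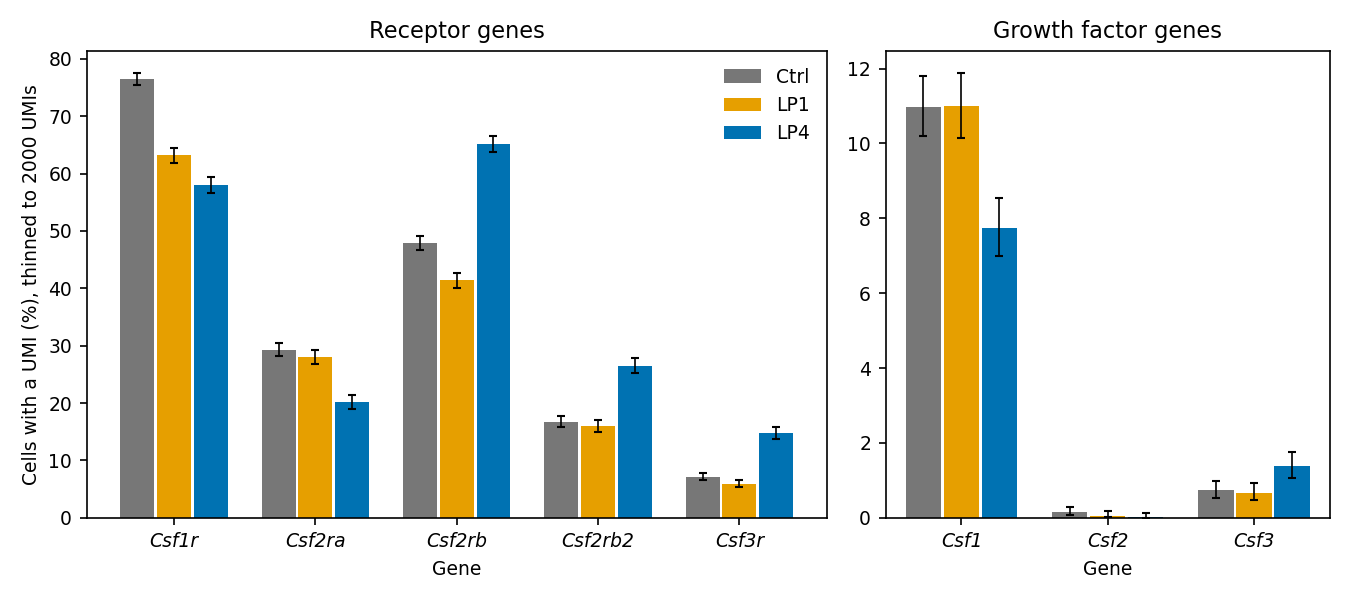
Share of cells with at least 1 UMI of each member after every cell was thinned to 2000 UMIs. Bars are Ctrl, LP1 and LP4, and error bars are exact binomial 95% intervals over cells. The 5 receptor genes separate LP4 from Ctrl, down for *Csf1r* and *Csf2ra* and up for the other 3, and so do *Csf1* and *Csf3*.

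Among the growth factor genes, *Csf1* was lower at 4 hours. *Csf1* (ENSMUSG00000014599, chromosome 3, 107741048 to 107760469, minus strand) encodes M-CSF, the ligand of CSF1R. Its level was 99.3 CPM in Ctrl (3543 UMIs, 96.0 to 102.6), 103 CPM in LP1 (5417 UMIs, 100 to 106) and 47.4 CPM in LP4 (2913 UMIs, 45.7 to 49.2). Ctrl and LP1 overlapped, with a log2 ratio of 0.06 (-0.01 to 0.12). LP4 was lower than Ctrl by a log2 ratio of -1.07 (-1.14 to -0.99) and lower than LP1 by -1.12 (-1.19 to -1.06). The difference from Ctrl sits at the 2-fold line, and TMM scaling (-0.90), DESeq2 size factors (-0.86) and a mean of cell shares brought it under that line with the direction kept. With DESeq2 size factors the ratio of LP4 to LP1 was -0.99, also under 2-fold.

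*Csf1* UMIs were concentrated in few cells of Ctrl and LP1. The 1% of cells with the most *Csf1* UMIs held 23.2%, 21.4% and 16.7% of them. Cells with at least 5 *Csf1* UMIs numbered 232 for Ctrl, 365 for LP1 and 90 for LP4, and they held 53.8%, 68.0% and 24.5% of its UMIs. These counts are not thinned, and LP1 was deeper than Ctrl. At 2000 UMIs per cell, 104 of 5949 Ctrl cells (1.75%) and 88 of 5052 LP1 cells (1.74%) held at least 3 *Csf1* UMIs, against 10 of 4625 LP4 cells (0.216%). At equal depth the values of Ctrl and LP1 were close, and that of LP4 was the lowest. The unthinned share of cells with a *Csf1* UMI was 19.3%, 25.4% and 31.6%, against the direction of the CPM, and no order is read from it. Thinned, the share was 11.0% in Ctrl (10.2 to 11.8), 11.0% in LP1 (10.1 to 11.9) and 7.74% in LP4 (6.99 to 8.55). In neutrophil-like cells 2 of 21, 0 of 21 and 1 of 29 thinned cells held a *Csf1* UMI.

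*Csf3* (ENSMUSG00000038067, chromosome 11, 98701263 to 98703629, plus strand), which encodes G-CSF, was rare and was higher at 4 hours. Its level was 4.54 CPM in Ctrl (162 UMIs, 3.87 to 5.29), 3.56 CPM in LP1 (187 UMIs, 3.07 to 4.11) and 10.3 CPM in LP4 (632 UMIs, 9.51 to 11.1). The log2 ratio of LP4 was 1.18 (0.93 to 1.44) to Ctrl and 1.53 (1.29 to 1.77) to LP1, while that of LP1 to Ctrl was -0.35 (-0.66 to -0.04). It was seen in 96 Ctrl cells, 98 LP1 cells and 166 LP4 cells, which is 1.58%, 1.93% and 3.55% of cells without thinning. At 2000 UMIs per cell the shares were 0.740% (0.538 to 0.992), 0.673% (0.467 to 0.939) and 1.38% (1.07 to 1.76). In stromal-like cells no thinned cell held a *Csf3* UMI in Ctrl or LP1 and 1 of 21 did in LP4.

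Some LP4 cells held large *Csf3* counts. No Ctrl or LP1 cell had more than 7 *Csf3* UMIs, whereas LP4 had a cell with 39 and 5 cells with at least 20, which held 24.5% of its *Csf3* UMIs. The 10 highest LP4 cells held 224 of the 632 UMIs (35.4%), against 27.8% for Ctrl and 27.3% for LP1. The top 1% of cells, which is 61, 51 and 47 cells, held 78.4%, 74.9% and 71.0%. As *Csf3* was seen in only 96, 98 and 166 cells, a high share follows in part from its rarity. It is not read as concentration among the cells with *Csf3*. At 2000 UMIs per cell, at least 3 *Csf3* UMIs were left in 3, 1 and 7 cells. Without the 10 highest cells of each library the levels were 3.28, 2.59 and 6.64 CPM, and the order of the libraries was kept. Cells with at least 5 *Csf3* UMIs numbered 6 for Ctrl, 7 for LP1 and 37 for LP4.

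**Figure D3:**
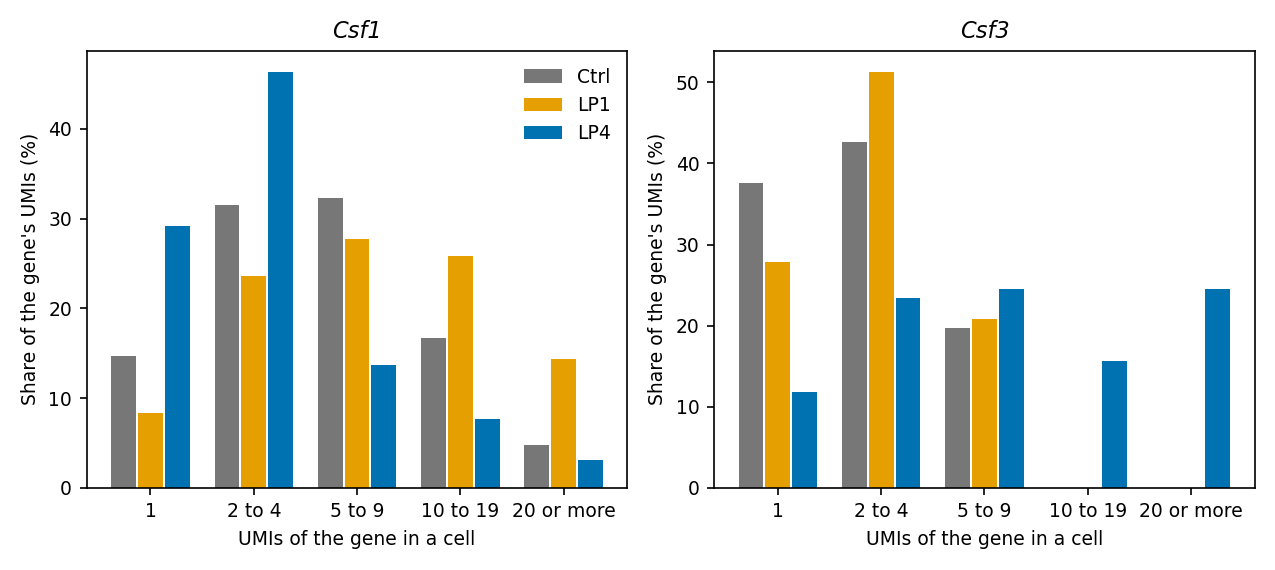
Share of all *Csf1* UMIs (left) and *Csf3* UMIs (right) of a library that lay in cells with 1, 2 to 4, 5 to 9, 10 to 19 and 20 or more UMIs of that gene. The counts are not thinned. Cells with 5 or more *Csf1* UMIs hold 53.8%, 68.0% and 24.5% of it, the last in LP4, the deepest library, and *Csf3* reaches 20 or more UMIs per cell in LP4, where these cells hold 24.5% of it.

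*Csf2* (ENSMUSG00000018916, chromosome 11, 54247271 to 54249667, minus strand), the gene of GM-CSF, was close to the limit of detection. It had 27 UMIs in 22 Ctrl cells (0.757 CPM, 0.499 to 1.10), 33 UMIs in 26 LP1 cells (0.629 CPM, 0.433 to 0.883) and 15 UMIs in 8 LP4 cells (0.244 CPM, 0.137 to 0.403). Ctrl and LP1 overlapped. The LP4 interval lies below both, with a log2 ratio to Ctrl of -1.63 (-2.65 to -0.67), but its 42 UMIs in the pair are under the minimum of 50 and it was not compared. The largest *Csf2* count in a cell was 6, in LP4. After thinning, 9, 3 and 1 cells held a UMI, and no order is read from these counts.

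The members were then described by cluster of cells. Clusters were built without the 8 members and without the pathway genes named further on, and were named from marker genes. A to D were macrophage-like (5243, 4586, 2551 and 2030 cells), E was cycling-like (981 cells) and F dendritic cell-like (208 cells). These 6 had at least 50 cells in every library and were compared. In E and F, 9 and 8 macrophage markers were each also found in at least 50% of cells. G, neutrophil-like, had 32 Ctrl, 25 LP1 and 29 LP4 cells, and H, stromal-like, had 23, 20 and 21. I (57 cells) had a median depth of about 1000 UMIs and stayed unnamed. *Egr3*, *Nr4a3* and *Apoe* led A, *Fabp4* and *Ch25h* led B, *Ccnd1* and *Mcm* genes led C, and *Mgll*, *Ctsk* and *Mmp9* led D. Of the pairs of a cluster and a member, 38 had enough UMIs to compare LP4 with Ctrl, and 7 were called higher and 5 lower. Of the 52994 such pairs over all genes, 11.6% were called higher and 10.9% lower. None of 37 pairs was called between LP1 and Ctrl, beside 1.32% higher and 0.946% lower over all genes. Between LP4 and LP1, 10 of 39 were higher and 4 lower, beside 9.61% and 9.14%.

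The direction of each receptor gene at 4 hours was the same in all 6 clusters compared. *Csf1r* was lower in 6 of 6, from -0.81 in A and B to -1.15 in the dendritic cell-like F on the log2 scale. Among these 6 clusters it was highest in A in each library, at 1030, 733 and 586 CPM, with F next at 990, 626 and 448 CPM. In Ctrl these did not differ beyond counting error. Its lowest level in Ctrl among clusters A to F was 610 CPM in the cycling-like E. In the neutrophil-like cells *Csf1r* had 9, 11 and 35 UMIs, or 86.1, 78.1 and 138 CPM. *Csf2ra* was lower in 6 of 6 clusters, from -0.81 to -0.60. Among these 6 it was highest in D (279, 263 and 185 CPM) and lowest in A (126, 121 and 79.6 CPM). In Ctrl the interval of D overlapped that of F.

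*Csf2rb* and *Csf2rb2* were higher at 4 hours in 6 of 6 clusters. The log2 ratio of *Csf2rb* was smallest in D (0.25), where its Ctrl level of 661 CPM was not separate from the 648 CPM of F, and largest in A (0.96). In LP4 these 6 clusters lay closer together, with 788 CPM in D and 472 CPM in C. *Csf2rb2* ranged from 0.46 in D to 1.10 in A, where it was called. Among these 6 clusters it was highest in the dendritic cell-like F, at 154, 155 and 246 CPM. In Ctrl and LP1 its interval overlapped that of D (120 and 124 CPM). In the neutrophil-like cells *Csf2rb2* had 0, 2 and 4 UMIs while *Csf2rb* had 22, 17 and 79.

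*Csf3r* was higher at 4 hours in 6 of 6 clusters and called in 5, all but A. Its log2 ratio ran from 0.95 in A to 1.72 in C. Of clusters A to F, A had the highest level in each library, at 67.7, 68.7 and 130 CPM. It held 52.6%, 52.7% and 42.9% of all *Csf3r* UMIs. In LP1 the interval of A overlapped that of F (54.5 CPM). The neutrophil-like cells held 4, 11 and 19 *Csf3r* UMIs, at most 0.7% of the total in any library, at 38.2, 78.1 and 74.7 CPM. Most *Csf3r* transcripts of this culture were thus in macrophage-like cells.

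The growth factor genes were spread unevenly. *Csf1* was lower at 4 hours in the 5 clusters in which it could be compared, from -0.79 in B to -1.44 in the cycling-like E. Of clusters A to F, E had the highest level in every library, at 216, 184 and 79.6 CPM, and its interval lay above that of the next cluster each time. At least 5 *Csf1* UMIs were found in 15.5% of E cells in Ctrl, 19.9% in LP1 and 10.2% in LP4. E cells were deeper than their libraries, with medians of 8242, 14664 and 21206 UMIs, and the part of depth in these shares was not tested. At 1 hour B had the largest increase of *Csf1* of the 5 clusters compared, from 77.1 to 106 CPM (log2 ratio 0.46), while E was lower by -0.23. F went from 30.4 to 52.9 CPM but had too few UMIs to compare.

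The stromal-like cells differed from the macrophage-like cells in *Csf1*. Their level was 362 CPM in Ctrl (56 UMIs, 274 to 471), 206 CPM in LP1 (44 UMIs, 150 to 276) and 436 CPM in LP4 (152 UMIs, 369 to 511). In Ctrl 1 cell held 27 of the 56 UMIs, and in LP1 1 cell held 27 of the 44. The counting intervals do not cover this spread between cells. Those of Ctrl and LP4 overlapped, so the lower *Csf1* level of LP4 in clusters A to E was not seen in these 23 and 21 cells. The difference between the clusters was not tested. In LP4, 11 of the 21 stromal-like cells had at least 5 *Csf1* UMIs, and this cluster of under 0.5% of cells held 5.22% of the *Csf1* UMIs of the library. The same cells held 7 of the 15 *Csf2* UMIs of LP4, 6 of them in 1 cell, and none in Ctrl or LP1. Stromal markers summed to more CPM in LP4 than in the other libraries, as given with the depths, and their part in these values was not tested.

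*Csf3* was found mainly in cluster A and, in LP4, in the neutrophil-like cells. Cluster A held 66.0%, 61.5% and 64.1% of *Csf3* UMIs, at 10.9, 9.64 and 25.5 CPM. Within A the log2 ratio of LP4 to Ctrl was 1.22 (0.91 to 1.54), and 24 of its cells in LP4 had at least 5 *Csf3* UMIs against 5 in Ctrl and 4 in LP1. These counts are not thinned, and A cells had medians of 3985, 7020.5 and 9150 UMIs. Thinned, 1.54%, 1.45% and 2.83% of A cells held a *Csf3* UMI. In B the log2 ratio of LP4 to Ctrl was 0.08, with 2.93 and 3.09 CPM. The neutrophil-like cells had 0, 1 and 85 *Csf3* UMIs. The 85 UMIs of LP4 came from 8 of 29 cells, with up to 26 in 1 cell, and made 334 CPM (267 to 413) and 13.4% of all *Csf3* UMIs of that library. With macrophage-like clusters alone the log2 ratio of LP4 to Ctrl was 0.96, under 2-fold.

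**Figure D4:**
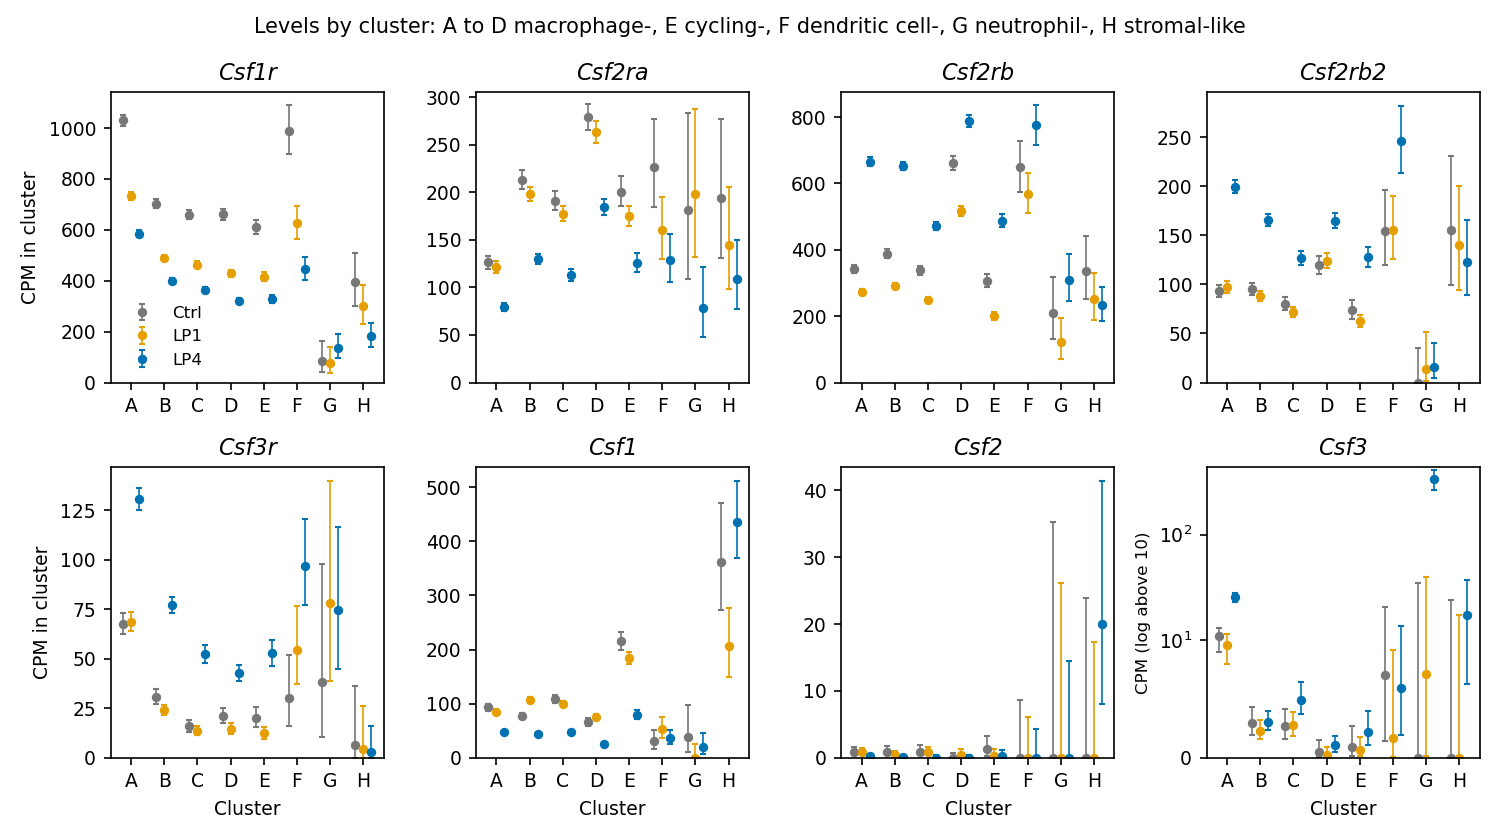
Level of each member in CPM by cluster in Ctrl, LP1 and LP4, with exact Poisson 95% intervals; the *Csf3* axis is linear up to 10 CPM and logarithmic above. The receptor genes keep 1 direction between Ctrl and LP4 across A to F, *Csf1* is highest in E and H, and *Csf3* is highest in the neutrophil-like G in LP4 (334 CPM).

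The LP4 cells were also split by whether they held a UMI of a growth factor gene, and for each gene the 5 leading genes by ratio of CPM are given. In the 1478 cells with *Csf1*, *Hist1h1b* (231 against 64.9 CPM), *Hist1h2ap* and *Hist1h2ae*, histone genes of dividing cells, led with *Top2a* and *Inhba*. These cells had a median of 14290 UMIs against 10878 in the rest. *Csf1r* was 405 CPM in the cells with *Csf1* and 431 CPM in those without. In the 166 cells with *Csf3*, *Lcn2* (261 against 34.6 CPM), *S100a9*, *S100a8*, *Thbs1* and *Slpi* led. *Lcn2*, *S100a9* and *S100a8* are neutrophil genes, and 8 of the 166 cells were neutrophil-like. Within cluster A, the 111 LP4 cells with *Csf3* had 2.68 CPM of *S100a9* (3 UMIs) and 4.47 CPM of *Lcn2* (5 UMIs), against 1.89 and 8.66 CPM in the 1482 cells without. Both intervals of the log2 ratio included 0. *S100a8* was higher in the cells with *Csf3*, at 47.3 against 26.1 CPM (log2 ratio 0.86, 0.42 to 1.28). So was the neutrophil marker *Ngp*, at 8.04 against 0.338 CPM (9 and 5 UMIs). *Camp*, *Elane* and *Mpo* had at most 5 UMIs on either side. The protease inhibitor gene *Slpi* was higher there too, at 198 against 48.6 CPM (log2 ratio 2.03, 1.80 to 2.25), as did *Thbs1*, the gene of the matrix protein thrombospondin-1, at 422 against 192 CPM. *Csf3r* was 119 CPM in all LP4 cells with *Csf3* and 77.5 CPM in those without, but within cluster A it was 146 and 129 CPM, with an interval of the log2 ratio from -0.07 to 0.40.

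The levels were next set beside those of 4581 other genes over 18 points, the 6 clusters of the 3 libraries. The points share libraries and depth, and the correlations are descriptions. *Csf1r* was most like *Pld4* (Pearson's r 0.97 on log2 CPM), *AY036118* and *Spty2d1*. *Csf2ra* was most like *Dnmt3a* (0.97), *Sh3bgrl3* and *Ksr2*. *Csf2rb* was most like its neighbour and near-copy *Csf2rb2* (0.92), and *Csf2rb2* was most like *Nub1* (0.95), with *Pla2g7* also among the nearest. *Csf3r* was most like *Fcgr2b* (0.96), *Ms4a4a* and *Ifi207*. *Csf1* was most like *Pbx3* (0.91) and *Csf3* most like *Ets2* (0.93).

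Windows before the RefSeq start sites were given for 5 of the 8 members, *Csf2ra*, *Csf2rb2*, *Csf3r*, *Csf1* and *Csf2*. The 250 bases before the start are printed for the 4 of them that were compared at 4 hours, so that 2 genes that were lower and 2 that were higher can be read side by side. Capitals mark matches on either strand to the NF-kB consensus, to GAGGAA (a core of PU.1 sites), to TTGCNNAA (C/EBP), to TGANTCA (AP-1), to GAGATTCC (the core of the CK-1 element of CSF genes) and to TATAAA. Sequences are from RefSeq on GRCm38.p6, 5′ to 3′ on the strand of the gene.
Csf2ra chr19:61228419-61228668 (minus strand): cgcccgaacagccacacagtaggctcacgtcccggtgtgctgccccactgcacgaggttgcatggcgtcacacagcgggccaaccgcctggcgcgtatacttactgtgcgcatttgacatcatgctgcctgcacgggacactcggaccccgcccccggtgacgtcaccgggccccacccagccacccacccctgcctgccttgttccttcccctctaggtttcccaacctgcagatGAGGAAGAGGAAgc
Csf1 chr3:107760470-107760719 (minus strand): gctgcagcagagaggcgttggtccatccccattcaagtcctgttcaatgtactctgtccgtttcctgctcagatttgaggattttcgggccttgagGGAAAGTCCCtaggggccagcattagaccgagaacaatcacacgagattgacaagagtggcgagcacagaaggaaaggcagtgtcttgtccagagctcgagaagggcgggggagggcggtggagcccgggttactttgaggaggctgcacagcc
Csf2rb2 chr15:78305722-78305971 (minus strand): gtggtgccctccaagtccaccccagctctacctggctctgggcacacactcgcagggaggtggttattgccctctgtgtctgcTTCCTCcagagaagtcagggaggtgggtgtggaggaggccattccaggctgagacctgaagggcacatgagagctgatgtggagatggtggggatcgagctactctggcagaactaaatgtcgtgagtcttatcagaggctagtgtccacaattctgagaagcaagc
Csf3r chr4:126024409-126024658 (plus strand): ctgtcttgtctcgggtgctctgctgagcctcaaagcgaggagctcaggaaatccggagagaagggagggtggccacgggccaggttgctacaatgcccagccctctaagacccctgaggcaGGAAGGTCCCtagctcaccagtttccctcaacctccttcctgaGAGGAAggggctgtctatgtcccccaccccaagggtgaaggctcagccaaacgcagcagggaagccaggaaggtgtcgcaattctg

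The search covered 300 bases, 250 before and 50 after each start. Shares of all windows leave out chromosome 18. *Csf3r* and *Csf1*, which moved in opposite directions at 4 hours, each held 1 match to the NF-kB consensus, from base -129 to -120 and from -154 to -145, and 8.46% of the 32851 windows searched held at least 1. GAGGAA was found in *Csf2ra* (2 adjoining matches between -14 and -3), *Csf2rb2* (2 matches) and *Csf3r* (1 match), beside 28.3% of all windows. The only match in the *Csf2* window was to TTGCNNAA, which 10.8% of windows held. That window lies upstream of the GENCODE end of the gene (its 250 bases begin at 54249900, the gene ends at 54249667), so the letters next to the GENCODE start were not searched. The printed windows of *Csf3r* and *Csf2ra* instead run into the GENCODE genes, which begin at 126024550 (plus strand) and 61228429 (minus strand). The GAGGAA match of *Csf3r*, from -86 to -81, lies inside its gene. So do the *Csf2ra* match from -8 to -3 and the *Csf2rb2* match from 30 to 35. The other *Csf2ra* match, from -14 to -9, spans the GENCODE start. GAGATTCC, TGANTCA and TATAAA were in none of the 5 windows and in 0.904%, 7.81% and 13.6% of all windows. A match is a run of letters and not a bound site.

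Genes that act with the CSFs were read from 7 lists of 102 genes in all. At 4 hours 91 were compared with Ctrl, and 19 were higher and 9 lower, with a median log2 ratio of 0.26, where 11.1% of all genes were called higher and 13.6% lower. At 1 hour 2 of 88 were higher, *Socs1* and *Cebpb*, and none lower, beside 1.09% and 1.62% of all genes. Between LP4 and LP1 the counts were 18 higher and 10 lower of 91, beside 9.83% and 11.1%.

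The JAK-STAT proteins that serve the CSF2 and CSF3 receptors had the most calls, with 9 higher and 1 lower of 19 at 4 hours, beside the 11.1% and 13.6% of all genes, and a median of 1.00. *Jak2*, the kinase bound to the beta chain, was 117, 126 and 470 CPM (log2 ratio to Ctrl 2.01). The transcription factor genes *Stat5a* (17.8, 22.8 and 87.5 CPM), *Stat3* (69.5, 69.6 and 252 CPM) and *Stat5b* (20.5, 21.5 and 47.6 CPM) were higher as well. So were the feedback inhibitors of cytokine signaling *Cish* (4.17, 5.35 and 61.1 CPM), *Socs3* (52.3, 98.9 and 648 CPM) and *Socs1* (1.68, 3.85 and 90.7 CPM), and the cyclin gene *Ccnd2* (1.79, 1.49 and 12.7 CPM). *Pim3*, a kinase gene, was lower, at 24.3, 43.4 and 4.59 CPM. *Jak1* was 221 and 275 CPM and *Shc1* 24.3 CPM in both Ctrl and LP4.

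Of the 26 proteins that act below CSF1R, 3 were higher and 3 lower at 4 hours, with a median of -0.10. These counts were near the 11.1% and 13.6% of all genes called. The kinase gene *Src* (35.8, 34.2 and 89.5 CPM) was among the higher ones, with *Socs1*, which is in both lists. The lipid phosphatase gene *Inpp5d* (138, 94.2 and 40.5 CPM), the phosphatase gene *Ptpn6* (106, 91.1 and 48.0 CPM) and *Pik3r1*, a regulatory subunit of phosphoinositide 3-kinase (146, 137 and 49.5 CPM), were lower. *Tyrobp*, an adaptor gene, was 3478, 2299 and 1804 CPM, a log2 ratio of -0.95 that is short of 2-fold. *Cbl*, whose product marks CSF1R for degradation, was 216, 191 and 116 CPM.

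Transcription factors known to act on *Csf1r* had 5 genes lower and 1 higher of 13 at 4 hours, beside 13.6% and 11.1% of all genes. Their median log2 ratio was -0.55. *Runx1* (593, 521 and 215 CPM), *Fli1* (117, 92.1 and 44.7 CPM), *Egr2* (103, 134 and 5.88 CPM) and *Bhlhe40* (42.5, 42.2 and 9.46 CPM) were among those lower. *Cebpb* was higher, at 98.8, 346 and 1657 CPM. *Spi1*, the gene of PU.1, was 561, 512 and 506 CPM, a log2 ratio of -0.15. At 1 hour, when *Csf1r* was at 522 CPM, the log2 ratios of *Runx1* and *Spi1* to Ctrl were -0.19 and -0.13.

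Of the 6 genes for shedding of CSF1R and CSF1 from the cell surface, 3 were called higher and none lower. The shares over all genes were 11.1% and 13.6%. *Rhbdf2*, which guides the protease ADAM17 to the surface, was 40.3, 40.0 and 109 CPM. The other 2 were under 10 CPM and are named after their values were seen. *Timp3*, the gene of an inhibitor of ADAM17, was 0.448, 0.343 and 2.93 CPM (16, 18 and 180 UMIs), the largest log2 ratio of the list (2.71), and its product acts against shedding. It is also among the 10 leading genes of the stromal-like cells, whose markers summed to 5.35, 6.31 and 22.1 CPM, and their part in its level was not tested. *Rhbdf1* was 0.448, 0.838 and 1.66 CPM. *Adam17* itself was 211, 230 and 192 CPM. Beside 11.1% and 13.6% of all genes, 2 of 14 regulators of mRNAs with AU-rich elements, which CSF mRNAs carry, were higher and none lower. They were *Zfp36*, whose product leads such mRNAs to decay (93.2, 185 and 398 CPM), and *Arid5a* (19.7, 17.0 and 55.1 CPM). None of the 9 NF-kB subunit and inhibitor genes was called at 4 hours, beside the same shares of all genes. *Nfkb1* was 1257, 1303 and 1089 CPM.

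Of 16 other growth factor and receptor genes of blood cell formation, 5 were compared and 2 were higher, beside 11.1% of all genes. *Tnfrsf11a*, the gene of RANK, was 105, 122 and 213 CPM, and the other was under 10 CPM. *Il3ra*, the IL-3 alpha chain that pairs with both beta chains, was 48.8, 39.2 and 29.9 CPM, so its direction was that of *Csf2ra*. *Il34*, the second ligand of CSF1R, had 4, 8 and 37 UMIs. *Il3*, *Il5* and *Il5ra* had 0 UMIs in every library, which allows up to 0.0841, 0.0572 and 0.0489 CPM, the level of 3 UMIs. No transcript of the other 2 ligands of the common beta chain was thus found at this depth.

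**Figure D5:**
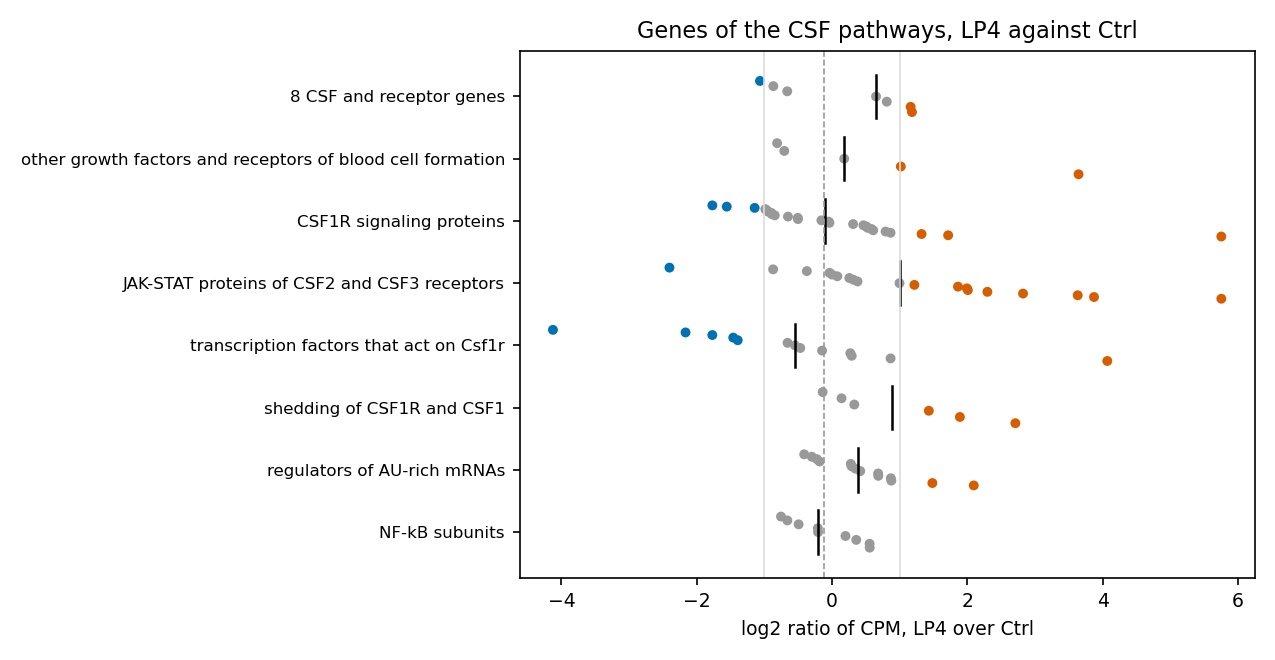
log2 ratio of CPM of LP4 to Ctrl for each compared member and list gene (points, 1 row of points per list). Orange points are called higher and blue points lower, black bars are list medians, and the dashed line is the median of all genes (-0.13). JAK-STAT genes lie furthest to the right (median 1.00) and the transcription factors of *Csf1r* furthest to the left (-0.55).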

How the data were processed

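Gene expression of 3 pools of BMDMs was measured with Chromium 3′ libraries. The authors used Cell Ranger (7.1.0 in the submitters' processing notes) with mm10, and deposited raw UMI counts for barcodes called as cells. Cells were kept with the limits the study states, which left 15806, more than the study gives for its own selection, and their UMIs were summed per library and scaled to CPM. Samples were grouped by their labels. With 1 library per condition no test was made. Ratios have exact conditional binomial, levels exact Poisson and shares exact binomial intervals at 95%. For thinned shares, 2000 UMIs were drawn from each cell with a seed of 20.

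Clustering used 2000 variable genes of 5206 that differed by less than 1.5 times between libraries, without members or list genes, centred within libraries, 30 principal components, 20 neighbours and Leiden resolution 0.5. Clusters were named by at least 3 markers among their 10 leading genes, or by 3 macrophage markers each in at least 50% of cells. Scrublet marked at most 1 cell per library, so the caller did not work here. No doublets were removed, and an alternative left out the 5% of cells with the highest scores.

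Members, lists and comparisons were chosen with earlier results of these data known. Genes named are the members, list genes past 2-fold with at least 10 CPM or that define a list, the 3 genes most like each member and the 5 that lead cells with a growth factor UMI; *Slpi* and the other genes within cluster A were chosen after their values were seen. Values of some genes that the rule names are not reported here. Correlations used log2(CPM + 1). Ratios were tested on simulated counts. Motifs were searched in RefSeq windows outside chromosome 18. Tools were Python 3.11.15, scipy 1.17.1, scanpy 1.11.5, leidenalg 0.10.2, edgeR 4.0.16 for TMM and DESeq2 1.42.0 for size factors. Alternatives were other scalings, cell filters, count minimums, thinning depths and clusterings.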

Additional observations from a re-analysis of the deposited data

Results flagged for a closer look

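Barcodes outside the cell limits were not part of any comparison. In the 369 LP4 barcodes that these limits removed, *Csf2rb* was at 559 CPM (1891 UMIs, 534 to 584), above the 262 CPM (16 UMIs, 150 to 426) of the 52 Ctrl barcodes removed. The kept cells had 633 and 403 CPM.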

How the results depend on the processing

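Of 87 counts under alternatives, 85 stayed within 1.5 times of the reported count. The pathway genes past 2-fold at 1 hour fell from 2 to 1 with a minimum of 10 CPM, since *Socs1* is below it. The cluster and member pairs past 2-fold at 4 hours were 7 without centring within libraries, against 12, with 4 clusters in place of 6 to compare. Of 312 log2 ratios of single members, 267 stayed within the counting interval and 45 moved outside it, and no called ratio changed sign. The minimum of 10 CPM and the absence of a count minimum change only which genes are compared. Ratios under these settings equal the reported ones by construction and are among the 267. *Csf3r* at 4 hours was called under all 13 alternatives and *Csf1* under 10. *Csf1* between LP4 and LP1 was called under 12, the exception being DESeq2 size factors (-0.99). *Csf3* was called under 12, the exception being macrophage-like clusters alone, and its ratio ran from 0.96 to 1.78. *Csf2rb2* passed 2-fold at 4 hours with DESeq2 size factors alone (1.02). Leaving out the 10 cells with the most UMIs of a member was chosen after seeing the data. No paired analysis was possible because each condition has 1 library, and for the same reason no library could be left out in turn. Depth limits *Csf2* and *Csf3*, and no spread between cultures is known.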
